A study of Mus musculus with 12 samples.

Results

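The DNA replication genes are 46 genes that work at replication origins, at the replication fork and at the entry into S phase, out of 27179 genes in a count table of mouse liver RNA. They were taken from a list of named genes, found in the table through their Entrez identifiers, and the rule itself uses no measured value. All 46 were present, and 45 had enough counts to be tested. The exception was Orc1, which had 1 to 30 counts per library.

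RNA was sequenced in bulk from 12 livers, 1 library per mouse, in 4 groups of 3. The study asked how dietary protein affects liver tumors driven by c-MET and β-catenin. Young adult male mice, described as C57/Bl3 in general and as of a mixed 129/Ola and C57BL/6 background for this tumor model, ate either a chow diet (CD) or a diet low in protein (LPD), received plasmids by hydrodynamic tail vein injection with Sleeping Beauty transposase (SB-HTVI), and stayed on their diet. The chow groups were CD Vec, with empty vector, and CD c-MET/β-catenin, with c-MET and the N-terminally truncated ΔN90–β-catenin, abbreviated CD Onc. The low-protein groups were LPD Vec, with empty vector, and LPD Onc, with the same oncogenes. The injection reaches only some hepatocytes, so that each oncogene liver mixes cells with and without the plasmids. Livers of all groups were taken when the CD Onc mice reached their end point, so the CD and LPD oncogene livers were matched in time and not in tumor stage. The labels give hepatocyte as the cell type, but the RNA came from whole liver tissue. In such tissue, more or fewer cells of a type and more or less RNA per cell cannot be told apart.

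Before S phase, the origin recognition complex, Cdc6 and Cdt1 load the Mcm2 to Mcm7 ring onto DNA, a step called licensing. Cdc45 and the GINS complex then turn that ring into the active helicase, and polymerases, a sliding clamp and a ligase copy the strands behind it. Most hepatocytes of an adult liver rest outside the cell cycle, and E2F transcription factors switch many of these genes on when cells enter it.

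Totals ran from 19476209 to 31990267 counts per library. Levels are given in CPM (counts relative to the library total), scaled by the trimmed mean of M values (TMM), and the replication genes together took 0.031% to 0.060% of the counts. Fold changes are on the log2 scale with their standard error (SE), from the edgeR quasi-likelihood test fitted to all 4 groups, and a gene was called at a Benjamini-Hochberg adjusted p under 0.05 over the 13947 genes tested. Values in parentheses are log2 fold changes ± SE, from 3 livers per group. The second header line of the table carries dataset numbers that fall into 3 runs, whose meaning the labels do not give. Run 1 held CD Onc replicates 1 and 2, run 3 held LPD Vec replicate 1 with CD Vec replicates 1 and 2, and run 2 held the other 7 libraries. CD Vec replicate 2 stood apart from the rest, at 60 on the second principal component against -24.2 to 18.9 in the other libraries.

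Promoter sequences show what some of these genes share beyond their roles. The printed promoters run from 250 bases before to 50 bases after the annotated start (RefSeq, GRCm38.p6, which is mm10), 5′ to 3′ on the strand of the gene, and capitals mark E2F-type letters, that is TTTCCCGC, TTTCGCGC, TTTGCCGC or TTTGGCGC on either strand. Mcm5 (chr8:75109259-75109558, plus strand) and Mcm6 (chr1:128359656-128359955, minus strand) are shown because both hold such letters and rose strongly on CD. Pcna (chr2:132253131-132253430, minus strand) is shown as a fork gene that was not called in any of the 5 comparisons, and Mcm10 (chr2:5012742-5013041, minus strand) as the member that fell. Neither of the last pair holds E2F-type letters in this window. The last bases of the Mcm10 window match the start of TTTGGCGC, and the base after them lies outside it, so a match across the edge would be missed.
Mcm5: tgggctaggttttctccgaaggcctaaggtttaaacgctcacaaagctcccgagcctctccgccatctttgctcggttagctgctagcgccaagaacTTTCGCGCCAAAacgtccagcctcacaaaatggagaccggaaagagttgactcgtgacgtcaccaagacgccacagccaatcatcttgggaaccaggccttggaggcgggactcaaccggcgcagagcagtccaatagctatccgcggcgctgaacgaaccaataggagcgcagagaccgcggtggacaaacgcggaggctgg
Mcm6: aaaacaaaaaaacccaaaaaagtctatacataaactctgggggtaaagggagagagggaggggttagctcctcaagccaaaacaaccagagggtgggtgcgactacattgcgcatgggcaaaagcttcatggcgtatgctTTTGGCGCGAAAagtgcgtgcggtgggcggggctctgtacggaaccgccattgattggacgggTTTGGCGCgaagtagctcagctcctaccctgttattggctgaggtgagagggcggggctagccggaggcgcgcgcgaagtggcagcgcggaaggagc
Pcna: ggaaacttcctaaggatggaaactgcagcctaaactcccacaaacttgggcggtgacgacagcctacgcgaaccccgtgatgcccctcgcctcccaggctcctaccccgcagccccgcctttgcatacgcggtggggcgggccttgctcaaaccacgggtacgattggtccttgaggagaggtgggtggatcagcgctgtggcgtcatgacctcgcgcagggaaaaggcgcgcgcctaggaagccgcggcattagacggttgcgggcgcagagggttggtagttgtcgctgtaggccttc
Mcm10: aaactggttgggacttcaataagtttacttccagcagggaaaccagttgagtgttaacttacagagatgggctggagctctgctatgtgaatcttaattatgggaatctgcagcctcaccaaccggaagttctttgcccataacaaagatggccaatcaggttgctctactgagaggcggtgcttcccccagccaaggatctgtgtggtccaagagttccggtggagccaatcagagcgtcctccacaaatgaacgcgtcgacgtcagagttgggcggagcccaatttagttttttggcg
Counted from the annotated start, the matches of Mcm5 begin at -153 and -149 and overlap. Those of Mcm6 begin at -110 and -106, which overlap, and at -47, which stands alone.

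On chow diet, replication genes were higher in Onc livers than in vector livers. Of the 45 tested, 25 rose, 1 fell (Mcm10) and 19 were not called, with a median log2 fold change of 0.80 against -0.01 over all genes tested. Among all tested genes 18.7% rose and 16.7% fell in this comparison. The 3 CD Onc libraries all lay above the 3 CD Vec libraries for 21 of the 45, against 22.2% of all tested genes. By role, all 6 genes that join strands and copy chromatin rose, as did 8 of 10 tested licensing genes, 4 of 8 clamp, clamp loader and single-strand binding genes, 3 of 8 polymerase and primase genes, 3 of 7 genes of G1/S control and the fork checkpoint, and 1 of 6 helicase activation genes. With a term for the header runs, which differ between the chow groups in all libraries but replicates 3, 5 members were called (Mcm7, Gins2, Prim1, Lig1 and E2f2), against 6.78% of all tested genes, while the median log2 fold change of the 45 was 0.93. With only the compared groups in the fit 12 of the 45 were called (11 higher and 1 lower), a share near the 22.2% of all genes tested in that fit. DESeq2 called 27, against 38.4% of all tested genes. Without CD Vec replicate 2, 21 were called, against 33.8% of all genes tested in that fit, and over the 12 fits without 1 library the count was lowest without CD Onc replicate 3, at 19 against 33.5%. With libraries scaled by total counts alone 31 members rose and 1 fell, and 4469 of 5670 calls over all genes were rises, in place of 2603 of 4933. Within run 2, which holds 1 library of each chow group, the median difference of log2 CPM was 0.81 and 39 of 45 differences were positive.

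**Figure D1:**
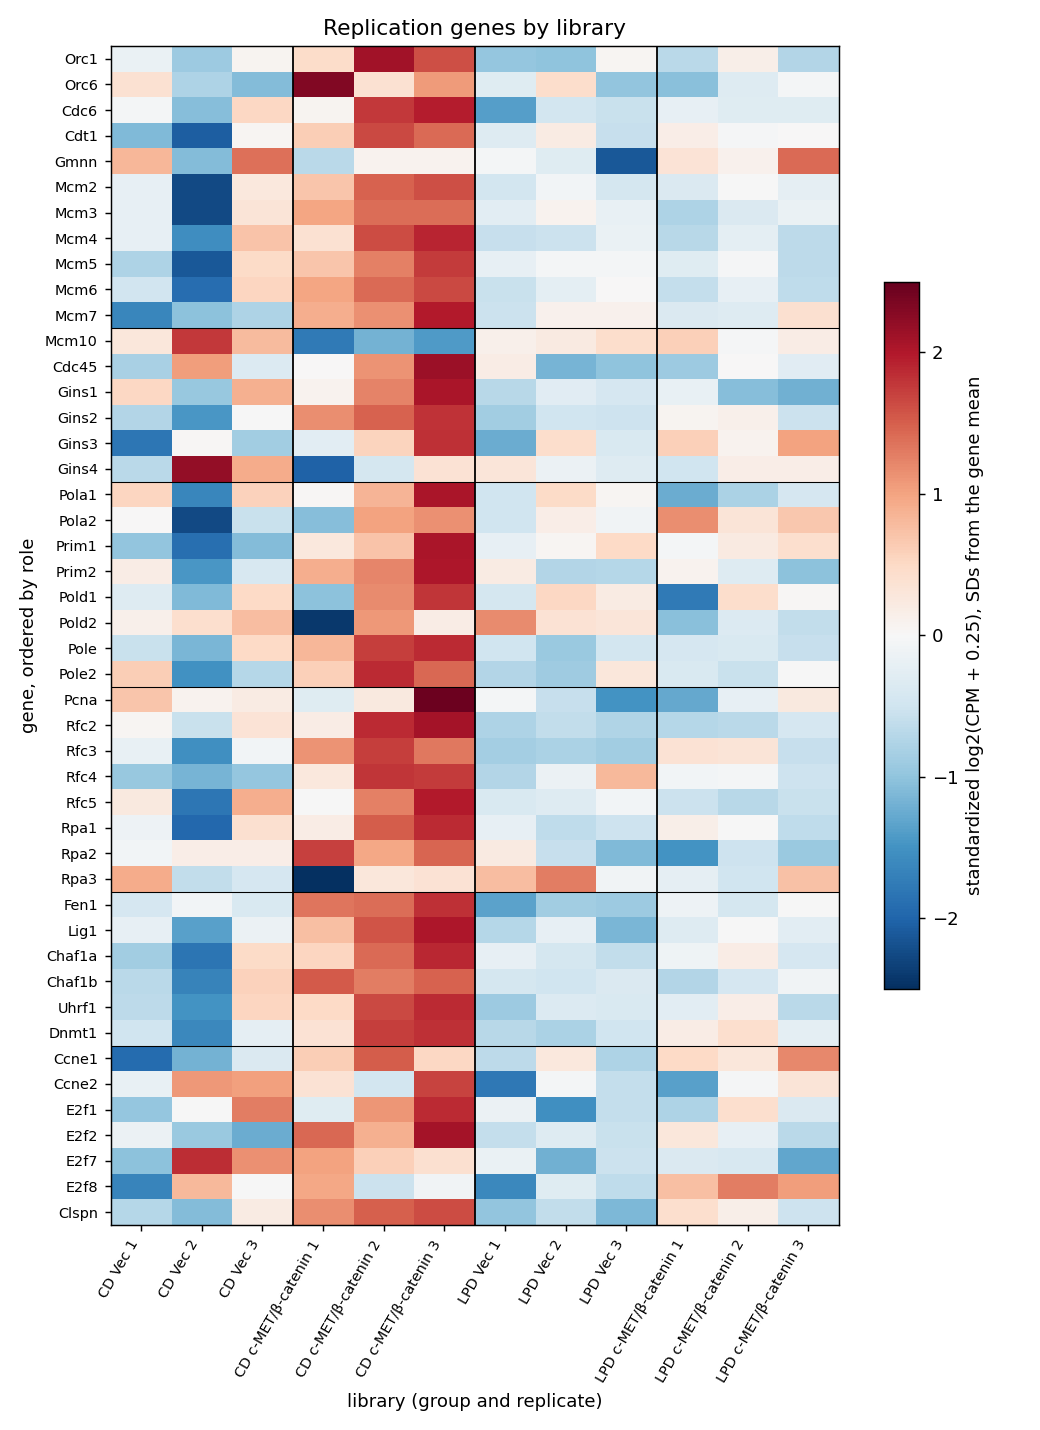
Standardized log2(CPM + 0.25) of the 46 replication genes, with 1 column per library in groups of 3 and genes ordered by role. Warm colors fill most of the 3 CD Onc (c-MET/β-catenin) columns, whereas Mcm10 is lowest there, and CD Vec replicate 2 is the lowest of its group for 30 of the 45 tested genes.

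Of the licensing genes, all 6 of the ring rose. Mcm2, a subunit of the licensing ring, measured 4.18, 0.909 and 5.78 CPM in the CD Vec livers and 7.71, 13 and 14.3 CPM in the CD Onc livers. It was therefore higher in every oncogene liver (1.68 ± 0.46, adjusted p = 0.0148). Mcm3 stood at 6.32, 2.16 and 8.28 CPM in CD Vec and 11.5, 14.1 and 14 CPM in CD Onc, again without overlap (1.24 ± 0.35, adjusted p = 0.0158). Mcm4 overlapped between the groups, with 5.19, 3.18 and 7.24 CPM against 6.41, 9.99 and 11 CPM (0.80 ± 0.28, adjusted p = 0.042). Mcm5 and Mcm6 had the largest fold changes of the ring. Mcm5 measured 2.8, 0.796 and 8.07 CPM in CD Vec and 9.58, 15.1 and 22.4 CPM in CD Onc (2.01 ± 0.58, adjusted p = 0.0189). Mcm6 measured 2.39, 0.455 and 6.45 CPM in CD Vec and 9.87, 15 and 18.8 CPM in CD Onc (2.22 ± 0.61, adjusted p = 0.0145). The Vec values of both were spread widely, with replicate 2 lowest and replicate 3 highest. Mcm7, the most abundant subunit per kilobase of exon, had the smallest relative spread of the 6 in CD Vec, at 12.5, 14.3 and 15.1 CPM in CD Vec and 21.8, 23 and 27.5 CPM in CD Onc (0.79 ± 0.14, adjusted p = 0.00105).

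**Figure D2:**
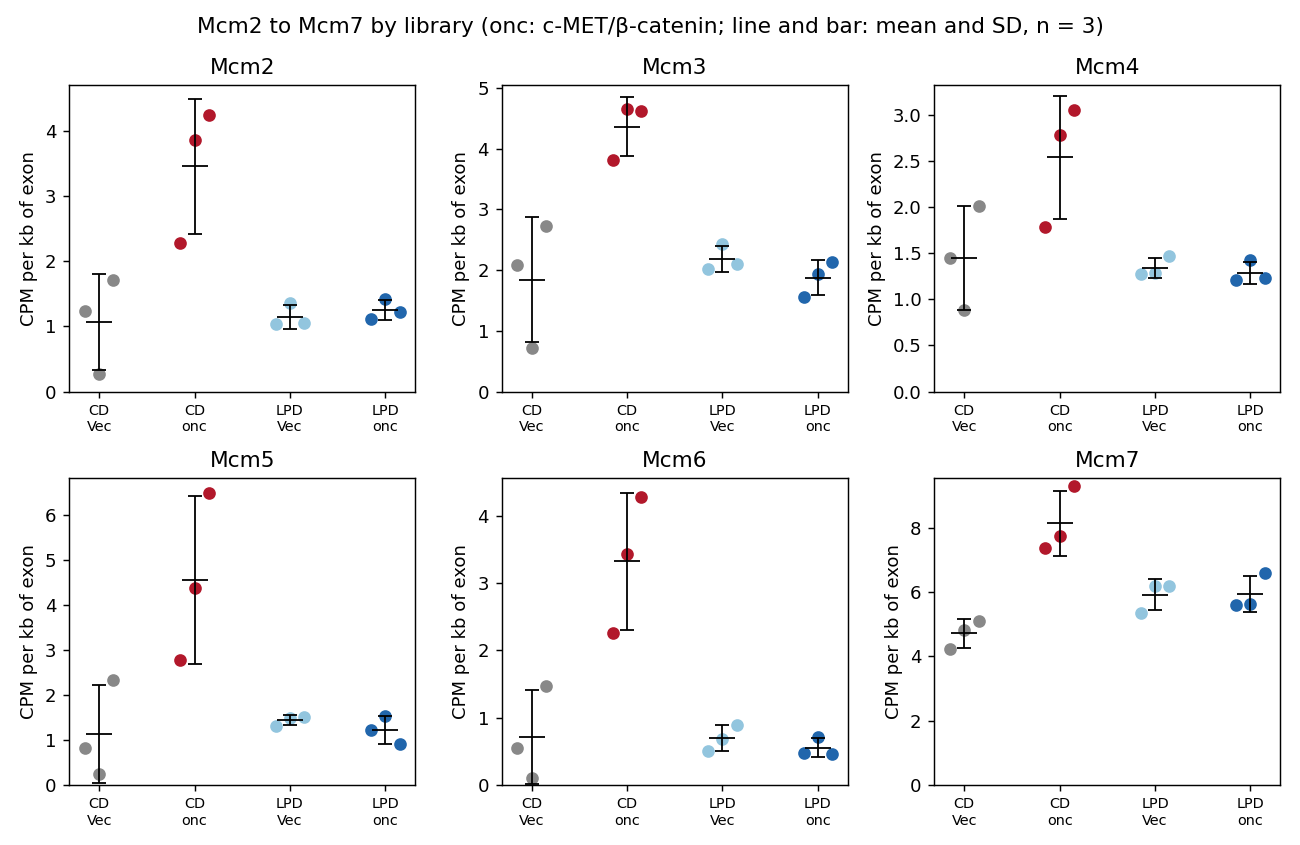
CPM per kilobase of exon of the 6 subunits of the licensing ring in each library, with the mean and SD of 3 libraries per group (onc, the oncogenes). In CD Onc livers the 6 subunits reached between 1.79 and 9.30, and the LPD Onc points overlap the LPD Vec points in all 6 panels.

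The loading factors Cdc6 and Cdt1 rose as well. Cdc6 measured 0.458, 0.114 and 0.781 CPM in CD Vec and 0.519, 2.08 and 2.4 CPM in CD Onc. Its groups overlapped, and the difference was called (1.84 ± 0.66, adjusted p = 0.0456). Cdt1, the other loading factor, measured 2.24, 1.25 and 4.32 CPM in CD Vec and 5.89, 10.3 and 9.09 CPM in CD Onc, with no overlap, and was called. Orc6, a subunit of the origin recognition complex, was not called, with ranges of 4.01 to 5.6 CPM in CD Vec and 5.58 to 8.63 CPM in CD Onc that met at one end. Orc1, its largest subunit, was below the filter at 0.0568 to 0.260 CPM in CD Vec and 0.375 to 1.22 CPM in CD Onc. Gmnn encodes geminin, the inhibitor of Cdt1, and was not called, at 7.22 to 10.5 CPM in CD Vec and 7.68 to 8.61 CPM in CD Onc. When single libraries were left out, Cdc6 was called in 3 of 12 fits (highest adjusted p 0.136, without CD Onc replicate 3), Mcm4 in 2 (0.127, without the same library), Mcm5 in 10 (0.0668, without CD Vec replicate 1) and Mcm6 in 11 (0.0532, without CD Vec replicate 1).

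Of the 6 helicase activation genes 1 rose, 1 fell and 4 were not called. These shares are near the 18.7% and 16.7% of all tested genes that rose and fell. Gins2, a subunit of GINS, rose from 0.509, 0.171 and 1.15 CPM in CD Vec to 3.41, 4.44 and 5.91 CPM in CD Onc (2.89 ± 0.49, adjusted p = 0.000931). It shares 2758 exon bases with Gse1 on the opposite strand. Mcm10, which acts when the helicase is switched on, went the other way. Its level was 96.5, 335 and 149 CPM in CD Vec and 17.6, 28.7 and 23.5 CPM in CD Onc (-3.06 ± 0.41, adjusted p = 0.000265). All 3 oncogene livers were below all 3 vector livers. Per kilobase of exon Mcm10 was the highest of the 46 genes in CD Vec, LPD Vec and LPD Onc, at a mean of 39.1, 19.3 and 19.5 CPM per kilobase, and which part of the gene the reads came from cannot be seen in gene counts. The remaining subunits were not called. Cdc45 ranged over 1.17 to 2.39 CPM in CD Vec and 1.62 to 3.56 CPM in CD Onc, Gins1 over 2.56 to 4.58 and 3.55 to 6.55, Gins3 over 0.356 to 0.853 and 0.750 to 1.72, and Gins4 over 14.9 to 23.3 and 12 to 17.5. Each of these pairs of ranges overlapped.

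Among the polymerases, the primase and the leading-strand enzyme rose. Prim1, the catalytic subunit of primase, measured 2.39, 1.59 and 2.29 CPM in CD Vec and 4.13, 4.97 and 8.64 CPM in CD Onc (1.49 ± 0.29, adjusted p = 0.00217). Prim2, its partner, measured 3.06, 2.05 and 2.65 CPM in CD Vec and 3.64, 3.91 and 4.71 CPM in CD Onc (0.66 ± 0.23, adjusted p = 0.04). Both were higher in every oncogene liver. Pole, the catalytic subunit of the leading-strand polymerase ε, measured 2.14, 1.53 and 3.75 CPM in CD Vec and 4.45, 7.09 and 7.59 CPM in CD Onc, also without overlap (1.36 ± 0.32, adjusted p = 0.00576). The partners of primase in the polymerase α complex, Pola1 (2.61 to 4.95 CPM in CD Vec and 4.24 to 7.48 CPM in CD Onc) and Pola2 (5.12 to 7.79 CPM in CD Vec and 6.38 to 9.58 CPM in CD Onc), were not called. Nor were the lagging-strand polymerase δ genes Pold1 (2.5 to 5 CPM in CD Vec and 2.6 to 8.53 CPM in CD Onc) and Pold2 (14.7 to 16.6 CPM in CD Vec and 9.26 to 17.5 CPM in CD Onc), or the ε subunit Pole2 (0.511 to 1.22 CPM in CD Vec and 1.21 to 1.92 CPM in CD Onc). Prim2 was called in 4 of the 12 fits without 1 library (highest adjusted p 0.119, without CD Onc replicate 3).

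The gene of the sliding clamp was not called, whereas 4 loader and binding genes rose. Pcna, which encircles DNA and holds the polymerases on it, measured 25.6, 23.2 and 23.7 CPM in CD Vec and 21.8, 23.8 and 33.9 CPM in CD Onc (0.13 ± 0.17, adjusted p = 0.575). Its groups overlapped, and CD Onc replicate 3 was the highest of all 12 libraries. Rfc3, Rfc4 and Rfc2 belong to the loader that opens the clamp. Rfc3 rose from 7.28, 3.81 and 7.7 CPM to 13.4, 17.8 and 14.7 CPM (1.29 ± 0.26, adjusted p = 0.0024) and Rfc4 from 2.09, 1.99 and 2.08 CPM to 2.8, 4 and 3.97 CPM (0.80 ± 0.23, adjusted p = 0.0167), both without overlap. Rfc2 was also called, at 18 to 21.4 CPM in CD Vec and 20.7 to 29.6 CPM in CD Onc, with overlap. Rpa1, the large subunit of the single-strand binding protein, measured 25.8, 12.9 and 31.5 CPM in CD Vec and 29.1, 48 and 54.5 CPM in CD Onc (0.90 ± 0.29, adjusted p = 0.0322). Not called were the loader subunit Rfc5 (5.17 to 10.4 CPM in CD Vec and 8.22 to 13.6 CPM in CD Onc) and the smaller binding subunits Rpa2 (8.3 to 8.64 CPM in CD Vec and 9.95 to 11.3 CPM in CD Onc) and Rpa3 (6.08 to 7.38 CPM in CD Vec and 4.79 to 6.88 CPM in CD Onc). Leaving out 1 library at a time, Rfc2 was called in 2 of 12 fits (highest adjusted p 0.146, without CD Onc replicate 3), Rpa1 in 8 (0.105, without the same library) and Rfc4 in 11 (0.0558, without CD Onc replicate 2).

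Genes that finish and package the new strands all rose. Lig1, the ligase that joins Okazaki fragments, measured 4.28, 1.71 and 4.42 CPM in CD Vec and 8.69, 16 and 22 CPM in CD Onc (2.16 ± 0.41, adjusted p = 0.0017). Chaf1b, a subunit of the histone chaperone CAF-1, measured 1.02, 0.398 and 2.76 CPM in CD Vec and 5.48, 4.57 and 5.28 CPM in CD Onc (1.87 ± 0.47, adjusted p = 0.00926). Both were higher in each oncogene liver. Uhrf1, which recognizes half-methylated DNA behind the fork, measured 0.764, 0.171 and 3.17 CPM in CD Vec and 3.06, 10.6 and 13.3 CPM in CD Onc (2.69 ± 0.78, adjusted p = 0.0192). CD Vec replicate 3 lay just above the lowest oncogene liver, and the highest CD Vec library was 18.6 times the lowest. Also called were the flap nuclease gene Fen1 (5.7 to 6.42 CPM in CD Vec and 10.2 to 12 CPM in CD Onc), the second CAF-1 gene Chaf1a (0.739 to 4.11 CPM in CD Vec and 4.27 to 10.4 CPM in CD Onc) and Dnmt1 (8.75 to 13 CPM in CD Vec and 15.3 to 23.1 CPM in CD Onc), the methyltransferase that Uhrf1 recruits, each without overlap. Fen1 shares 1908 exon bases with Gm10143 and Chaf1a 1862 with Ubxn6, both on the opposite strand. Uhrf1 was called in 10 of the 12 fits without 1 library (highest adjusted p 0.0668, without CD Vec replicate 1) and Chaf1a in 11 (0.0554, without the same library).

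Of the G1/S genes, an activating factor, a cyclin and the checkpoint adaptor rose. Clspn encodes claspin, which links stalled forks to the checkpoint kinase Chk1, and measured 0.255, 0.114 and 0.885 CPM in CD Vec and 2.42, 3.34 and 3.78 CPM in CD Onc (2.90 ± 0.59, adjusted p = 0.0026). E2f2, an activating E2F, measured 2.8, 1.76 and 1.46 CPM in CD Vec and 6.75, 4.97 and 9.58 CPM in CD Onc (1.82 ± 0.32, adjusted p = 0.00111). Ccne1, the cyclin that drives S-phase entry with Cdk2, measured 2.85, 3.64 and 4.74 CPM in CD Vec and 6.46, 8.6 and 6.29 CPM in CD Onc (0.93 ± 0.24, adjusted p = 0.0104). None of the 3 overlapped. The second cyclin E gene Ccne2 (0.917 to 1.53 CPM in CD Vec and 0.815 to 1.95 CPM in CD Onc) was not called. Nor were E2f1, the other activating factor listed (3.21 to 7.18 CPM in CD Vec and 4.1 to 8.83 CPM in CD Onc), and the repressing factors E2f7 (0.560 to 2.1 CPM in CD Vec and 1.12 to 1.47 CPM in CD Onc) and E2f8 (3.21 to 12.6 CPM in CD Vec and 5.95 to 13.6 CPM in CD Onc).

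On low-protein diet, no replication gene was called between c-MET/β-catenin and vector livers, where 1.32% of all tested genes were called. By the edgeR test 4 of the 45 members had an unadjusted p under 0.05, against 11.1% of all tested genes, and the median log2 fold change was 0.07 against 0.01 over all tested genes. Mcm5 measured 4.51, 5.15 and 5.18 CPM in LPD Vec and 4.2, 5.26 and 3.1 CPM in LPD Onc (-0.24 ± 0.57, adjusted p = 0.947). Mcm6 measured 2.21, 3 and 3.9 CPM in LPD Vec and 2.1, 3.12 and 2.01 CPM in LPD Onc (-0.32 ± 0.61, adjusted p = 0.925). Both pairs of groups overlapped. Mcm7 measured 15.9, 18.3 and 18.4 CPM in LPD Vec and 16.6, 16.7 and 19.5 CPM in LPD Onc (0.00 ± 0.14, adjusted p = 0.996). Mcm2, Mcm3, Mcm4 and Pcna had log2 fold changes of 0.12, -0.22, -0.05 and 0.07, with adjusted p of 0.966, 0.911, 0.977 and 0.949. Without being called, 9 of the 45 members had all LPD Onc libraries above all LPD Vec libraries, against 13.5% of all tested genes, and 2 (Pold2 and Rfc5) had them all below, against 11.7%. The 9 were Cdc6, Gmnn, Pola2, Rfc3, Fen1, Dnmt1, Ccne1, E2f8 and Clspn. E2f8 measured 3.26, 6.8 and 5.64 CPM in LPD Vec and 12.1, 16.1 and 14.2 CPM in LPD Onc, Clspn 0.144, 0.296 and 0.102 CPM in LPD Vec and 1.12, 0.842 and 0.350 CPM in LPD Onc, and Fen1 4.17, 4.9 and 4.82 CPM in LPD Vec and 6.3, 5.65 and 6.56 CPM in LPD Onc. E2f8 was called with only the LPD groups in the fit (1.43, adjusted p = 0.023) and with DESeq2 (1.42, adjusted p = 0.0373), against 3.80% and 3.56% of all genes tested, and it is named here after its values were seen.

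**Figure D3:**
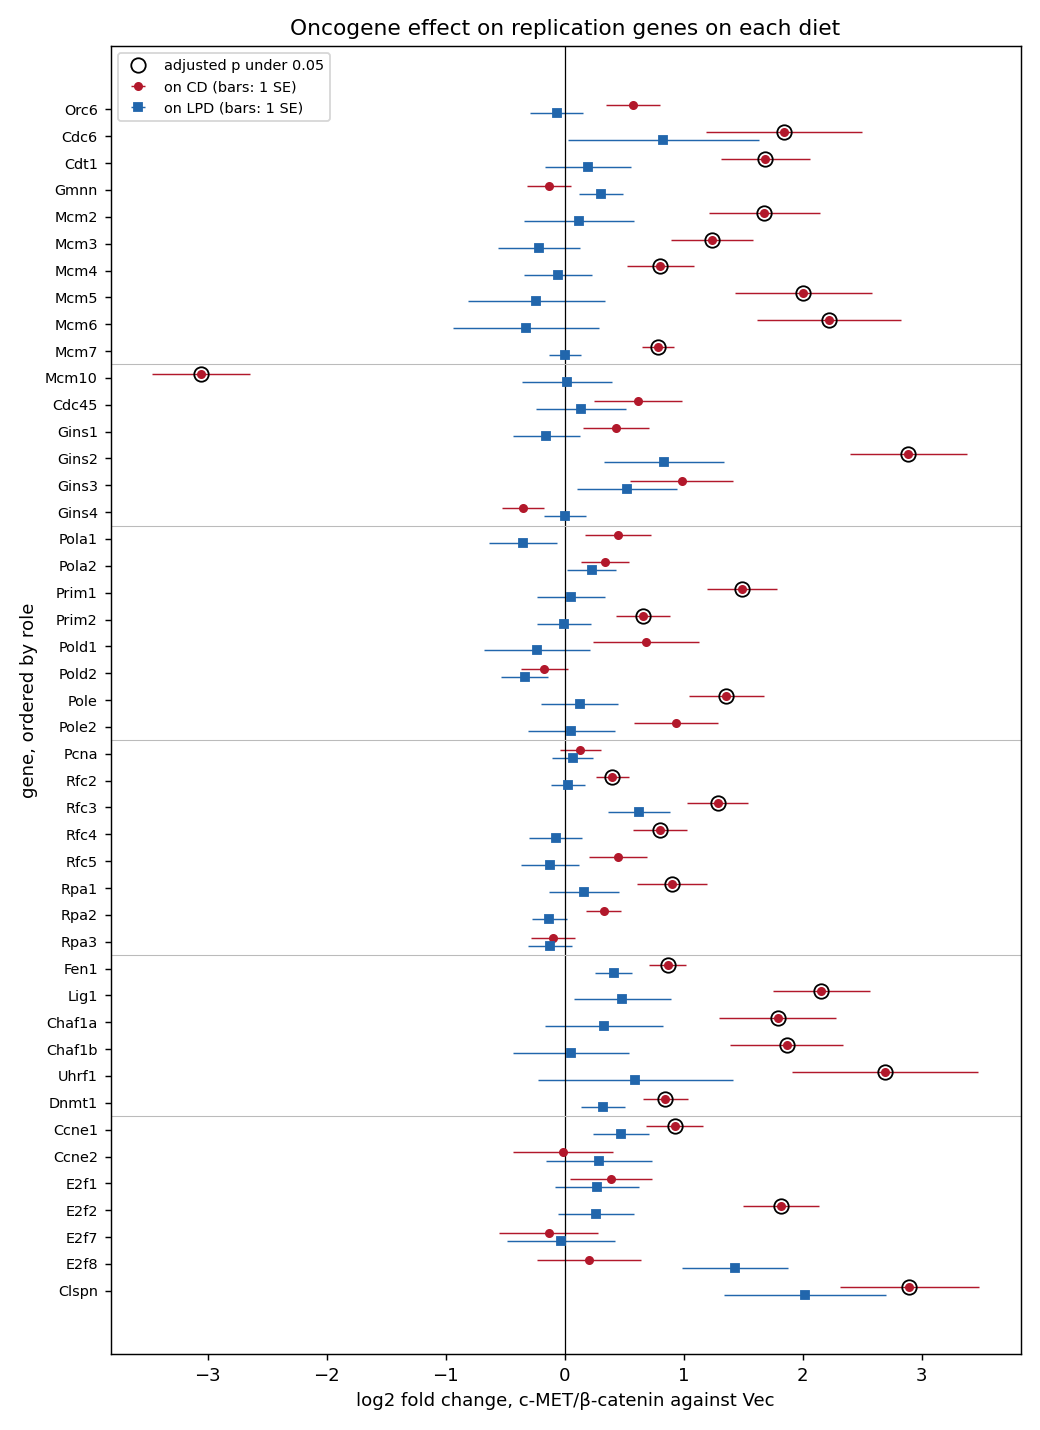
Log2 fold change of Onc against Vec (c-MET/β-catenin in the axis label) for the 45 tested genes on CD (red circles) and on LPD (blue squares), with bars of 1 SE and rings around genes with an adjusted p under 0.05. The 26 ringed genes are all on CD, and for 39 of 45 genes the LPD square lies to the left of the CD circle.

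Within Onc livers, LPD was compared with CD directly. Replication genes were lower on LPD, with 19 that fell, 1 that rose (Mcm10) and 25 not called, against 11.3% and 8.66% of all tested genes. The median log2 fold change was -0.77 against -0.01 over all tested genes. The 3 LPD libraries all lay below the 3 CD libraries for 30 of 45 members and for 20.0% of all tested genes. Of the 25 genes that rose with the oncogenes on CD, 17 fell here, but both comparisons use the same 3 CD Onc libraries. Calls depended on single libraries, since 10 members were called without CD Onc replicate 2, 11 without CD Onc replicate 3, 8 without LPD Onc replicate 1, 9 without LPD Onc replicate 2 and 8 without LPD Onc replicate 3. Over all genes tested in these 5 fits 15.9%, 19.2%, 12.6%, 13.9% and 11.1% were called. With a term for the header runs 8 were called, against 4.43% of all tested genes, with a median log2 fold change of -1.05, and with DESeq2 27, against 24.0%. Within run 2, where CD Onc has 1 library, the median difference of log2 CPM was -1.06 and 4 of 45 differences were positive.

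Of the licensing genes, 7 of 10 fell. In LPD Onc livers Mcm6 measured 2.1, 3.12 and 2.01 CPM against 9.87, 15 and 18.8 CPM in CD Onc (-2.58 ± 0.61, adjusted p = 0.0132). Cdc6 measured 0.391, 0.351 and 0.350 CPM against 0.519, 2.08 and 2.4 CPM (-2.17 ± 0.66, adjusted p = 0.0364), and Mcm5 4.2, 5.26 and 3.1 CPM against 9.58, 15.1 and 22.4 CPM (-1.90 ± 0.57, adjusted p = 0.0364). Mcm2, Mcm3, Mcm4 and Mcm7 fell by 1.46, 1.21, 0.97 and 0.46 on the log2 scale (adjusted p of 0.0411, 0.0277, 0.0294 and 0.0332). All 6 ring genes were therefore lower and did not overlap. In the fits without 1 library Mcm6 was called in 10 of 12 (highest adjusted p 0.0577, without LPD Onc replicate 3), Mcm3, Mcm4 and Mcm7 in 7 each (0.0979, 0.0948 and 0.115), Cdc6 in 5 (0.11), Mcm5 in 4 (0.125) and Mcm2 in 3 (0.118). Those highest values came without LPD Onc replicate 1 for Mcm2, Mcm3 and Mcm7 and without LPD Onc replicate 3 for the rest.

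Genes of the fork were called in this comparison as well. Gins2 measured 1.22, 1.3 and 0.656 CPM in LPD Onc against 3.41, 4.44 and 5.91 CPM in CD Onc (-2.10 ± 0.46, adjusted p = 0.00834), and Gins1 measured 3.27, 2.46 and 2.36 against 3.55, 5.1 and 6.55 CPM (-0.91 ± 0.28, adjusted p = 0.0384). Pole was the only polymerase gene called, at 2.3, 2.35 and 2.1 CPM in LPD Onc (-1.50 ± 0.31, adjusted p = 0.00691). Its CD Onc values, given above, were all higher. Of the loader and binding genes, Rfc2 (-0.56 ± 0.14, adjusted p = 0.0161), Rfc3 (-0.90 ± 0.25, adjusted p = 0.0263) and Rpa2 (-0.59 ± 0.15, adjusted p = 0.0153) fell. Rpa2 measured 6.45, 7.68 and 7.12 CPM in LPD Onc and 11.3, 9.95 and 10.8 CPM in CD Onc. Pcna was not called, at 18.6, 22.1 and 23.8 CPM in LPD Onc (-0.30 ± 0.17, adjusted p = 0.242). Mcm10 was opposite to the others, at 127, 74.3 and 89 CPM in LPD Onc (2.06 ± 0.40, adjusted p = 0.00507), close to its level in LPD Vec at 84.8, 91.8 and 109.9 CPM. Pole, Gins2 and Mcm10 were called in all 12 fits without 1 library, Rpa2 in 10 (highest adjusted p 0.0657, without LPD Onc replicate 1), Rfc3 in 9 (0.108, without LPD Onc replicate 3), Rfc2 in 8 (0.0584, without LPD Onc replicate 1) and Gins1 in 4 (0.128, without LPD Onc replicate 3).

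Some genes of strand joining, chromatin copying and G1/S control also fell. Uhrf1 measured 1.27, 2.1 and 0.743 CPM in LPD Onc (-2.68 ± 0.77, adjusted p = 0.0297), Chaf1b 0.977, 1.26 and 1.66 CPM (-1.97 ± 0.47, adjusted p = 0.0126) and Lig1 3.91, 4.95 and 4.07 CPM (-1.85 ± 0.40, adjusted p = 0.00779). Each of these was below all CD Onc livers, and Fen1 was called lower as well. Chaf1a and Dnmt1, at 2.19 to 3.37 and 12.8 to 15.5 CPM in LPD Onc, were not called. Clspn measured 1.12, 0.842 and 0.350 CPM (-2.04 ± 0.54, adjusted p = 0.0198) and E2f2 3.57, 2.7 and 2.05 CPM (-1.36 ± 0.31, adjusted p = 0.0102). Ccne1 overlapped between the diets, at 5.82 to 7.78 CPM in LPD Onc and 6.29 to 8.6 CPM in CD Onc. Lig1 and Fen1 were called in all 12 fits without 1 library, Chaf1b in 11 (highest adjusted p 0.0537, without LPD Onc replicate 1), E2f2 in 11 (0.0502), Clspn in 10 (0.0806) and Uhrf1 in 7 (0.108), the last 3 without LPD Onc replicate 3.

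Whether the oncogene effect differed between the diets was tested by the interaction, that is the log2 fold change on LPD minus that on CD. It was called for Mcm7, Prim1 and Mcm10 among the 45 members. Across all tested genes 4.42% were called below 0 and 4.49% above, so 2 members below and 1 above are a share near the background. Mcm7 had an interaction of -0.78 ± 0.19, adjusted p = 0.0296, Prim1 of -1.44 ± 0.41, adjusted p = 0.0478 and Mcm10 of 3.07 ± 0.55, adjusted p = 0.0096. Prim1 measured 3.36, 3.76 and 4.56 CPM in LPD Vec and 3.62, 4.07 and 4.42 CPM in LPD Onc, and both group means lay between those of the chow groups. The interaction was below 0 for 39 of 45 members, with a median of -0.66 against 0.02 over all tested genes, and 15 of the 45 had an unadjusted p under 0.05, against 25.8% of all tested genes. Mcm6 (-2.54 ± 0.86, adjusted p = 0.0864), Mcm5 (-2.24 ± 0.81, adjusted p = 0.106), Mcm2 (-1.56 ± 0.65, adjusted p = 0.156), Mcm3 (-1.46 ± 0.49, adjusted p = 0.0844) and Mcm4 (-0.86 ± 0.40, adjusted p = 0.198) were below 0 without being called, and Pcna was at -0.07 ± 0.24, adjusted p = 0.895. Scaling by total counts alone made 369 of 1271 calls over all genes lie above 0, in place of 626 of 1243. The 6 members with an interaction above 0 were Gmnn, Mcm10, Gins4, Ccne2, E2f7 and E2f8. For most members, then, a call on CD and none on LPD is not a called difference between the diets.

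Mcm10 was called in all 12 fits without 1 library, Mcm7 in 6 (highest adjusted p 0.084, without LPD Vec replicate 2) and Prim1 in 1 (0.114, without LPD Vec replicate 3). The interaction count itself was 10 without CD Vec replicate 3 and 1 without CD Onc replicate 3, LPD Vec replicate 2, LPD Vec replicate 3, LPD Onc replicate 1 or LPD Onc replicate 2. Over all genes tested, 7.49% were called without CD Vec replicate 3 and 2.75% to 9.91% in the other 5 fits. With a header-run term the edgeR test called none of the 3, at -0.91 (adjusted p = 0.0969) for Mcm7, -1.90 (adjusted p = 0.0602) for Prim1 and 3.00 (adjusted p = 0.139) for Mcm10, and no other member. DESeq2 called 10 interactions among the members, against 14.9% of all tested genes.

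In vector livers, diet alone called none of the 45 members, against 0.308% of all tested genes. By the edgeR test 5 of the 45 had an unadjusted p under 0.05, against 9.87% of all tested genes, and the median log2 fold change of LPD against CD was -0.05 against -0.03 over all tested genes. Mcm7 measured 12.5, 14.3 and 15.1 CPM in CD Vec and 15.9, 18.3 and 18.4 CPM in LPD Vec, with every LPD liver higher (0.33 ± 0.14, adjusted p = 0.45). Mcm6 measured 2.39, 0.455 and 6.45 CPM in CD Vec and 2.21, 3 and 3.9 CPM in LPD Vec (-0.04 ± 0.61, adjusted p = 0.992), the CD values enclosing the LPD values. Mcm2, Mcm3, Mcm4, Mcm5 and Pcna were at 0.10, 0.24, -0.12, 0.34 and -0.23, with adjusted p of 0.974, 0.875, 0.937, 0.901 and 0.712. Within run 2, with 1 CD Vec and 2 LPD Vec libraries, the median difference of log2 CPM was -0.37 and 10 of 45 were positive, against a median of 0.05 of the same quantity over all libraries.

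The spread between livers differed by group. Averaged over the 45 tested genes, log2 CPM was 1.92, 1.52 and 2.37 in the CD Vec libraries, 2.54, 2.96 and 3.18 in CD Onc, 1.84, 2.02 and 1.94 in LPD Vec, and 2.08, 2.20 and 2.06 in LPD Onc. The chow groups were thus the variable ones, with SDs of 0.42 and 0.33 against 0.09 and 0.07 on LPD. Members tended to be high or low together in a liver, though the matching counts over all tested genes were not made. CD Vec replicate 2 was the lowest of its group for 30 members and replicate 3 the highest for 28, and CD Onc replicate 1 was the lowest for 37 and replicate 3 the highest for 32. Replicate 3 of each chow group was the one from run 2. All LPD Onc libraries and LPD Vec replicates 2 and 3 were from run 2 as well, so diet and run cannot be fully told apart in this spread. The median coefficient of variation of the members was 35.1% in CD Vec, 26.3% in CD Onc, 14% in LPD Vec and 13.0% in LPD Onc, against 21.0%, 18.5%, 10.6% and 12.6% over all tested genes.

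**Figure D4:**
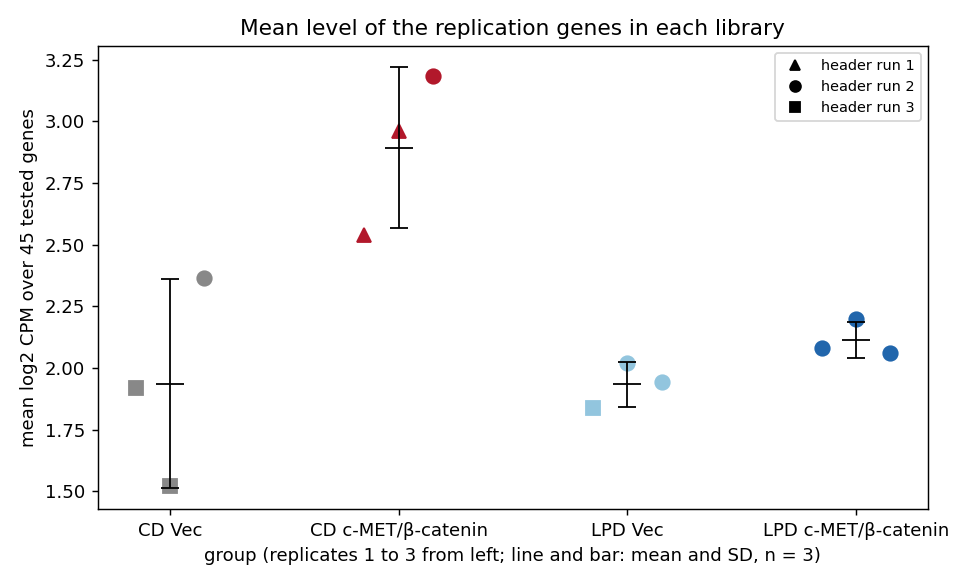
Mean log2 CPM over the 45 tested replication genes in each library (points), with the mean and SD of each group of 3 and marker shapes for the header runs. The CD Onc (c-MET/β-catenin) libraries lie between 2.54 and 3.18, above all others, while the LPD Onc libraries lie between 2.06 and 2.20.

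The highest group was shared by many members, but the full order of the 4 groups was not. The most common order, from high to low CD Onc, LPD Onc, LPD Vec and CD Vec, held for 10 genes. These orders were not counted over all tested genes. CD Onc had the highest mean CPM for 37 of the 46 genes, LPD Vec had the lowest for 18 and CD Vec for 15. For 23 genes the LPD Onc mean fell between the means of CD Vec and CD Onc, and in 21 of these CD Onc was above CD Vec. The ratio among the ring subunits also varied. In CPM per kilobase, the highest of the 6 ring genes was 2.79 to 4.13 times the lowest within each CD Onc library. That ratio was 3.45 to 46.5 in CD Vec, 6.96 to 10.6 in LPD Vec and 7.88 to 14.3 in LPD Onc, with Mcm7 the highest in every library. The 6 genes were thus nearer to each other in the CD Onc livers than in the other libraries, except for CD Vec replicate 3 at 3.45.

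The printed promoters can be set against all the others. Promoters were found for 37 of the 46 genes, and E2F-type letters stood in 18 of their 46 promoters (39.1%), against 2.26% of the 32851 promoters in the RefSeq table. On either strand, CCAAT, bound by NF-Y, was in 29 (63%) against 37.4%, and TTTGAA, the core of the CHR element, in 8 (17.4%) against 17.9%. These letters describe the windows and are not binding sites. Of the 17 tested genes with E2F-type letters 12 rose on CD, with a median log2 fold change of 1.29. Of the 19 tested genes whose promoter lacked them 8 rose, with a median of 0.57, and of the 9 with no promoter in the table (Gmnn, Mcm4, Gins1, Gins2, Gins4, Prim2, Pole, Rfc2 and Ccne2) 5 rose, with a median of 0.43. Pola1, Pold1, Pole2, Gins3 and E2f7 hold E2F-type letters and were not called on CD.

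**Figure D5:**
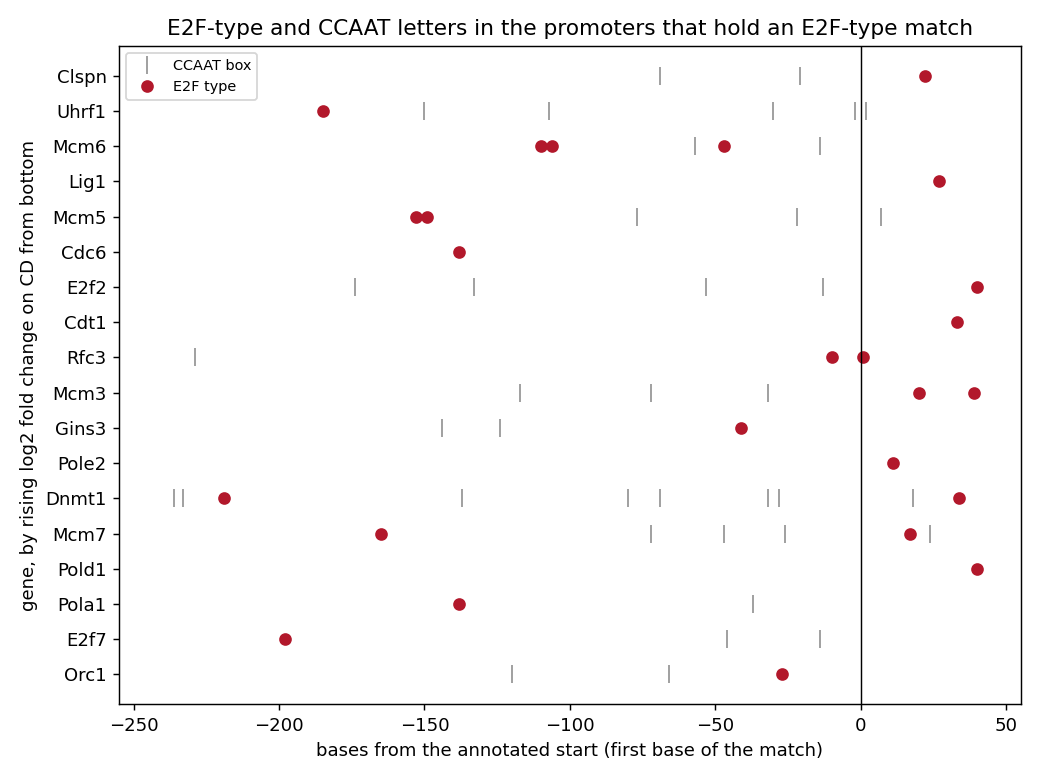
Distance in bases from the annotated start to the first base of each E2F-type match (red points) and CCAAT match (gray ticks), for the 18 replication genes with an E2F-type match, ordered by log2 fold change on CD with Orc1, which was not tested, at the bottom. Matches of Mcm5 begin at -153 and -149, and those of Mcm6 at -110, -106 and -47.

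Further genes of the pathway were taken from lists of known function. Of 32 further replication factors tested, 10 rose and 2 fell on CD, where 18.7% of all tested genes rose and 16.7% fell. Ticrr, Top2a, Chtf18 and Asf1b changed most. Ticrr, which acts in helicase activation, was at 0, 0 and 0.104 CPM in CD Vec and 1.47, 1.59 and 1.27 CPM in CD Onc. On the log2 scale the fold was 4.60 ± 0.46, adjusted p = 4.0e-05 for Top2a, a topoisomerase of dividing cells, 3.31 ± 0.47, adjusted p = 0.000312 for Chtf18, a clamp loader subunit, and 2.63 ± 0.47, adjusted p = 0.00126 for Asf1b, a histone chaperone. Of 24 further G1/S regulators 8 rose and 1 fell. Cdkn1a, the inhibitor p21 (4.81 ± 0.91, adjusted p = 0.00214), and Ccna2, cyclin A (4.25 ± 0.40, adjusted p = 3.3e-05), changed most. Cdkn1a measured 2.39, 1.31 and 6.97 CPM in CD Vec and 242, 22.8 and 36 CPM in CD Onc. The highest of these was CD Onc replicate 1, which had the lowest mean of replication genes within CD Onc. In CD Onc replicate 3, however, both Cdkn1a and that mean were higher than in replicate 2, and a link between them was not tested. Of 9 tested genes of deoxynucleotide supply 3 rose, namely Rrm2 (2.35 ± 0.43, adjusted p = 0.0015) and Rrm1 (0.79 ± 0.21, adjusted p = 0.0112), the subunits of ribonucleotide reductase, and Tyms, thymidylate synthase (0.81 ± 0.19, adjusted p = 0.0062).

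With a header-run term 4, 3 and 1 genes of these lists were called on CD, against 6.78% of all tested genes. On LPD, 1 replication factor and 1 regulator rose and no supply gene was called, against 1.32% of all tested genes in either direction. Dbf4, the activator of the origin-firing kinase Cdc7, measured 3.65, 1.94 and 2.62 CPM in LPD Vec and 6.16, 7.61 and 5.64 CPM in LPD Onc (1.25 ± 0.27, adjusted p = 0.0456). Ccna2 measured 0.767, 0.802 and 0.718 CPM in LPD Vec and 4.69, 4.35 and 2.4 CPM in LPD Onc (2.31 ± 0.40, adjusted p = 0.0143). Neither gene overlapped between the groups. With 1 library left out, no replication factor of this list was called without any 1 of the LPD Vec libraries, CD Vec replicate 1, CD Onc replicates 2 and 3 or LPD Onc replicates 1 and 2, and no regulator without any 1 of the LPD Vec libraries or LPD Onc replicate 2. With a term for the header runs 0 genes of either list were called. No gene of the 3 lists was called for diet in vector livers, against 0.308% of all tested genes. Between the diets in oncogene livers, 5 replication factors, 5 regulators and all 3 supply genes named above fell, of 32, 24 and 9 tested and against 11.3% of all tested genes, and Pole4 and Rbl2 rose. The interaction was called below 0 for Mtbp, Top2a, Chtf18, Cdkn2c, Fbxw7 and Rrm2, that is 3 of 32, 2 of 24 and 1 of 9 tested genes of the lists, against 4.42% of all tested genes.

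Marker sums of several cell types also differed between the groups. Summed CPM of 5 hepatocyte markers was 97950 to 102600 in CD Vec, 86370 to 92140 in CD Onc, 84180 to 112900 in LPD Vec and 63200 to 95740 in LPD Onc, with 2 of 5 called lower on CD. The 5 macrophage markers, of which 1 rose on CD, summed to 89.5 to 213 CPM in CD Vec, 174 to 314 in CD Onc, 143 to 178 in LPD Vec and 190 to 334 in LPD Onc. The 5 T or NK cell markers, of which 2 rose on CD, summed to 1.53 to 2.45 CPM in CD Vec, 2.94 to 5.28 in CD Onc, 1.34 to 2.21 in LPD Vec and 3.02 to 5.55 in LPD Onc. The 4 neutrophil markers summed to 1.36 to 2.5 CPM in CD Vec, 4.90 to 15.0 in CD Onc, 1.54 to 3.54 in LPD Vec and 1.40 to 2.27 in LPD Onc. Both that were tested, S100a8 and S100a9, rose on CD and were lower on LPD than on CD in oncogene livers, while Ly6g was at 0 in all CD and all LPD Vec libraries. The erythroid markers Hba-a1 and Hbb-bs were called higher on CD and lower on LPD than on CD in oncogene livers. Alas2 was not called in either comparison and went the other way on CD, at a log2 fold change of -0.81. The erythroid sum overlapped between the chow groups, at 168 to 221 CPM in CD Vec and 74.2 to 264 CPM in CD Onc. Hbb-bs measured 9.83, 9.09 and 7.24 CPM in CD Vec and 56.9, 14.2 and 31 CPM in CD Onc, highest in CD Onc replicate 1. Cholangiocyte markers, of which Krt19 rose on CD, summed to 7.70 to 8.53 CPM in CD Vec, 10.1 to 13.3 in CD Onc, 8.05 to 10.5 in LPD Vec and 5.68 to 6.25 in LPD Onc. Without Krt19 the sum of the other 3 was 7.64, 7.79 and 6.92 CPM in CD Vec and 9.67, 4.85 and 3.03 CPM in CD Onc, so that it was lower in 2 of the 3 CD Onc livers. Krt19 was also lower on LPD than on CD in oncogene livers. Of 5 stellate cell markers, Acta2 and Col1a1 rose and Dcn and Lrat fell on CD, and all 4 were called in the opposite direction on LPD against CD in oncogene livers. Col1a1, a fibrillar collagen, measured 10.4, 7.05 and 6.92 CPM in CD Vec, 195, 151 and 23.2 CPM in CD Onc, 7.2, 8.06 and 3.59 CPM in LPD Vec and 7.57, 6.17 and 11.2 CPM in LPD Onc. The stellate sum overlapped between the chow groups, as did those of endothelial and B cells. The part of these cells in the replication gene results was not tested.

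Exons of 16 of the 46 genes overlap those of another gene, 14 of them on the opposite strand, and the strand setting of the counting was not given in the sources used here. Reads of such pairs, among them Rfc2 with Lat2 (952 bases), E2f8 with Gm2788 (610), Rfc5 with Wsb2 (499), Mcm7 with Ap4m1 (321) and Lig1 with Zswim9 (217), cannot be told apart in these counts.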

How the data were processed

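Integer read counts per gene were deposited by the authors in 1 table of 12 libraries, aligned to mm10 with HISAT2 and counted by Entrez identifier with featureCounts. No version, strand setting or rule for reads with several matches is given in the sources used here. The labels describe depletion of ribosomal RNA and the methods of the study a stranded mRNA kit. Column names write HPD for the samples that the titles call chow, and the titles were followed.

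The members and lists were chosen with earlier results of these data known. Symbols came from RefSeq (GRCm38.p6, 25275 genes) and GENCODE M21 (18 more), and 1886 of 27179 genes had none. All 4 groups entered 1 fit in edgeR 4.0.16 (R 4.3.3), with TMM factors of 0.864 to 1.12, the filterByExpr filter, the robust quasi-likelihood test and Benjamini-Hochberg adjustment over 13947 genes, and 13232 genes were left out as low. The biological coefficient of variation was 23.2%. The pipeline was tested on simulated data. SEs were derived from F, as the absolute fold change on the log2 scale divided by its square root. At 1 CPM the smallest library holds 19.48 counts, so that lower genes are imprecise. Each library is 1 mouse, and p-values measure the spread between these mice. CPM per kilobase used the merged exons of the GENCODE basic annotation. Fold changes were printed for at most the 3 called members with the largest change in each role and comparison, for the Mcm2 to Mcm7 genes and Pcna throughout, and for all called members in the interaction. Of the further lists, up to 4 called genes with the largest change were eligible. A result for part of the erythroid marker list is not reported here.

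Same-numbered libraries did not deviate together (correlations of -0.183 to 0.167, above 0.1 in 2 of 18 pairs), so replicate numbers were not treated as pairs. Alternatives were total-count scaling, other filters, a replicate block, a header-run term, fits of the compared groups only, DESeq2 1.42.0 and leaving out each library.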

Additional observations from a re-analysis of the deposited data

Results flagged for a closer look

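The oncogene effect on 3 replication genes differed between the diets by the edgeR interaction test with Benjamini-Hochberg adjustment, which called 4.42% of all tested genes below 0 and 4.49% above. For Mcm7, a subunit of the licensing ring, the fold change from Vec to oncogene livers was lower on LPD than on CD, with an interaction of -0.78 on the log2 scale (adjusted p = 0.0296). For Prim1, the catalytic subunit of primase, the interaction was -1.44 (adjusted p = 0.0478). For Mcm10, a helicase activation factor, it was 3.07 (adjusted p = 0.0096). Mcm10 fell in all 3 CD Onc livers, and its levels on LPD overlapped between the injections. CD Vec replicate 2 held the highest Mcm10 level of all libraries, and the interaction was called without it as well. Of the 12 fits without 1 library, all called Mcm10, 6 called Mcm7 and 1 called Prim1, and none of the 3 was called with a header-run term (adjusted p = 0.139, 0.0969 and 0.0602). Causes of these differences were not tested.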

How the results depend on the processing

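Direction and number of calls were followed for the 45 tested replication genes. Against 26 members called on CD, 20 between diets in oncogene livers, 3 for the interaction and 0 in the other comparisons, total-count scaling, no low count filter and a mean of at least 1 CPM gave 24 to 32 (23.2% to 40.7% over all genes), 15 to 20 (12.8% to 20.5%), 2 to 4 (4.85% to 10.1%) and 0. The replicate block gave 23 (32.4%), 16 (17.1%), 2 (5.82%) and 0, and 3 of 12 libraries correlated best with one of their own number. A header-run term gave 5 on CD (6.78%), 8 between diets in oncogene livers (4.43%) and 0 for the interaction, and fits of the compared groups gave 12 on CD (22.2%) and 1 on LPD (3.80%). DESeq2 gave 27 on CD (38.4%), 1 on LPD (3.56%), 27 between diets in oncogene livers (24.0%) and 10 for the interaction (14.9%). Leaving out 1 library gave 19 to 27 on CD (30.0% to 34.0% over all genes), 8 to 27 between diets in oncogene livers (11.1% to 25.6%) and 1 to 10 for the interaction (2.75% to 9.91%), and 16 of 26, 5 of 20 and 1 of 3 calls were made in all 12 such fits. Under total-count scaling the median over all tested genes moved to 0.28 on CD (log2), 0.12 on LPD and -0.16 for the interaction, with the members at 1.09, 0.18 and -0.83.

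None of the fold changes printed for called members changed sign under these alternatives. Sign changes of uncalled members on LPD were Mcm4 at 0.0565 with total-count scaling, Mcm2 at -0.12 and Mcm7 at -0.0555 with the header-run term, and Mcm7 at -0.00667 with DESeq2. For diet in Vec, Mcm6 was at 0.0498 with total-count scaling and 0.10 with the replicate block, and Mcm2 at -0.0457 with the header-run term. Without 1 library, the log2 fold change on LPD ran from -0.14 to 0.0159 for Mcm4, -0.0771 to 0.0444 for Mcm7 and -0.0192 to 0.16 for Pcna. For diet in Vec it ran from -0.36 to 0.60 for Mcm2, -0.15 to 0.64 for Mcm3, -0.38 to 0.20 for Mcm4, -0.14 to 1.45 for Mcm5 and -0.55 to 1.07 for Mcm6. For Pcna it ran from -0.0884 to 0.26 on CD, and its interaction from -0.19 to 0.16. The causes were not tested. Depth limits members under 1 CPM, such as Cdc6 and Clspn in vector livers, and 3 livers per group limit all of them.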
